A study of Arabidopsis thaliana with 22 samples.

Results

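The genes described here are 42 Arabidopsis thaliana genes known to be induced when oxygen runs short, read in bulk root mRNA from wild-type plants and the myb67 mutant. They were taken by identifier from a list of hypoxia-induced genes that holds fermentation enzymes, oxygen sensors, transcription regulators and genes of little known role. All 42 were found among the 33323 genes of the deposited count table, and 39 of them passed the filter on low counts, which left 21683 genes for testing. HRE2, AT5G10040 and AT3G29970 were too low to test.

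When oxygen is scarce, plant cells cannot respire all their sugar and turn to ethanolic fermentation, in which pyruvate decarboxylase makes acetaldehyde and alcohol dehydrogenase turns it into ethanol. Oxygen is sensed through transcription factors of the ERF-VII group, which carry a cysteine right after the first methionine. Plant cysteine oxidases use oxygen to oxidise that cysteine, which marks the factor for breakdown, so in low oxygen the factors persist and switch on the hypoxia genes. Roots meet low oxygen in wet soil and in thick tissues, and some tissues keep a low oxygen level during normal growth.

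The first 30 coding bases of the ERF-VII genes are shown because they hold this cysteine, with its codon in capitals. They were read 5′ to 3′ on the coding strand from the RefSeq annotation of TAIR10.1. HRE1 and HRE2 are members of the list, and RAP2.12, RAP2.2 and RAP2.3 are the constitutive factors of the same group. In HRE1, 2 of 3 annotated coding models begin this way, and in the other 4 genes every model does.
HRE1: atgTGCggaggagctgtaatttccgattac
HRE2: atgTGTgggggagctatcatttctgatttc
RAP2.12: atgTGTggaggagctataatatccgatttc
RAP2.2: atgTGTggaggagctataatctccgatttc
RAP2.3: atgTGTggcggtgctattatttccgattat
All 5 genes carry a cysteine codon in second place, TGC in HRE1 and TGT in the others.

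Each library came from the top 1.5 cm of primary roots of about 40 pooled seedlings, 14 days old, with lateral roots cut off, and no treatment was given. Col-0 (WT) and the myb67 mutant in the Col-0 background (allele myb67-1 in the growth protocol) were grown together on plates. There were 6 WT and 6 myb67 libraries in experiment 1 and 5 of both in experiment 2, 22 in all. The labels call them biological replicates, and pooling averages over the seedlings in each. The labels and counts limit the mutant as a model, since the labels do not say where the lesion lies and the mRNA of MYB67 (AT3G12720) was higher, not lower, in the mutant. MYB67 stood at 6.58 ± 0.437 CPM in WT and 11.5 ± 1.66 CPM in myb67 in experiment 1 (SD, n = 6 each), and at 10.6 ± 2.79 CPM and 17.99 ± 3.68 CPM in experiment 2 (SD, n = 5 each). Its log2 fold change over both experiments was 0.79 (SE 0.11, edgeR adjusted p = 6.89e-05). The groups are therefore called libraries labelled myb67, and directions below are those of the labels.

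Levels are given as CPM, library-scaled counts after TMM. Depth was 3705515 to 17727642 counts per library for experiment 1 and 23190477 to 32091009 for experiment 2, so low genes carry more counting error in experiment 1. The library of fewest counts, WT replicate 1 of experiment 1, had 27.7% of them in the rRNA gene AT3G41768. It also had the lowest TMM factor, 0.709. The median of that rRNA share was 0.109% in experiment 1, and experiment 2 ran from 0.645% to 1.75%. Genes above 0 numbered 21908 to 24293 per library in experiment 1 and 29026 to 31259 in experiment 2. The authors deposited estimated counts in steps of 0.5 for experiment 1 and whole counts for experiment 2. The markers of mature root summed to 10493 to 13029 CPM in experiment 1 and 11241 to 14033 CPM in experiment 2, mostly from PYK10. The root-tip gene PLT1 was above 0 in every library. The markers of green tissue, 10 genes, summed to 412 to 1787 CPM in WT and 306 to 426 CPM in myb67 in experiment 1, and to 2073 to 3142 CPM and 2670 to 3711 CPM in experiment 2. In bulk tissue, fewer cells of a type and less RNA per cell cannot be told apart.

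Taking both experiments together, PDC1 (AT4G33070), a pyruvate decarboxylase, was the 1 member of 39 called, and it was higher in libraries labelled myb67. Of all 21683 genes, 1.5% were called in either direction and 0.816% were called higher. PDC1 differed by a difference of 0.31 on the log2 scale (SE 0.07, edgeR adjusted p = 0.0190). The call was kept with each single library left out and lost in 2 of 15 other fits, with the 3 libraries of fewest counts left out (0.32, adjusted p = 0.0629) and with no experiment term (0.27, adjusted p = 1.00). The median log2 fold change was 0.07 over the 39 members and 0.00 over all genes. Of the members, 30 of 39 were above 0 (76.9%, against 50.8% of all genes). Members may move together, so this count does not stand for 39 independent results. The 95% interval lay within 2-fold in either direction for 37 members and within 1.5-fold for 33. An unadjusted p under 0.05 was held by 3 members and by 1584 of all 21683 genes, the background for such counts over both experiments below. When the 5 same-numbered pairs of experiment 2 entered the fit as a block, PCO2 joined PDC1, both higher, where 2.21% of all genes were called and 1.1% were called higher. In the authors' deposited table, which compares the genotypes over the whole set, PDC1 was also the 1 member with an adjusted p under 0.05, with a log2 fold change of 0.31 and an adjusted p of 0.00445, among 40 members with a value. There, 1.58% of all genes passed.

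The experiments were then read apart. In experiment 1, 0 of 39 members were called with edgeR, against 0.623% of all genes. An unadjusted p under 0.05 was held by 2 members there, and by 1876 of all 21683 genes. DESeq2 and limma-voom also called 0 members there, against 1.25% and 0.457% of all genes. With the pairs of experiment 2 in the fit edgeR again called 0, against 1.29% of all genes. In experiment 2, edgeR called 2 members, PDC1 and AT5G42200, both higher in myb67, against 1.33% of all genes in either direction and 0.623% higher. These 2 genes were also the members whose myb67 libraries all lay above every WT library of experiment 2, which held for 0.922% of all genes, and no member lay wholly below, against 0.913%. DESeq2 and limma-voom each called 3 members in experiment 2, against 1.85% and 1.73% of all genes. With edgeR 8 members had an unadjusted p under 0.05 there, and so had 1789 of all 21683 genes. In experiment 1 no member had groups that did not overlap, against 0.567% of all genes above and 0.558% below. The median log2 fold change of the members was -0.02 in experiment 1 and 0.17 in experiment 2, where that of all genes was 0.00 in both. Values above 0 were held by 16 of 39 members in experiment 1 and by 30 of 39 in experiment 2. Of all genes, 50.2% and 51.7% were above 0. Members may move together from library to library, so these counts are not sums of independent results. The members' mean log2 CPM per library overlapped between the genotypes in both experiments. In experiment 2 it ran from 4.0677 to 4.3003 in WT (median 4.1457) and from 4.0765 to 4.4139 in myb67 (median 4.3679). A shift of the members as a set was not tested.

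**Figure D1:**
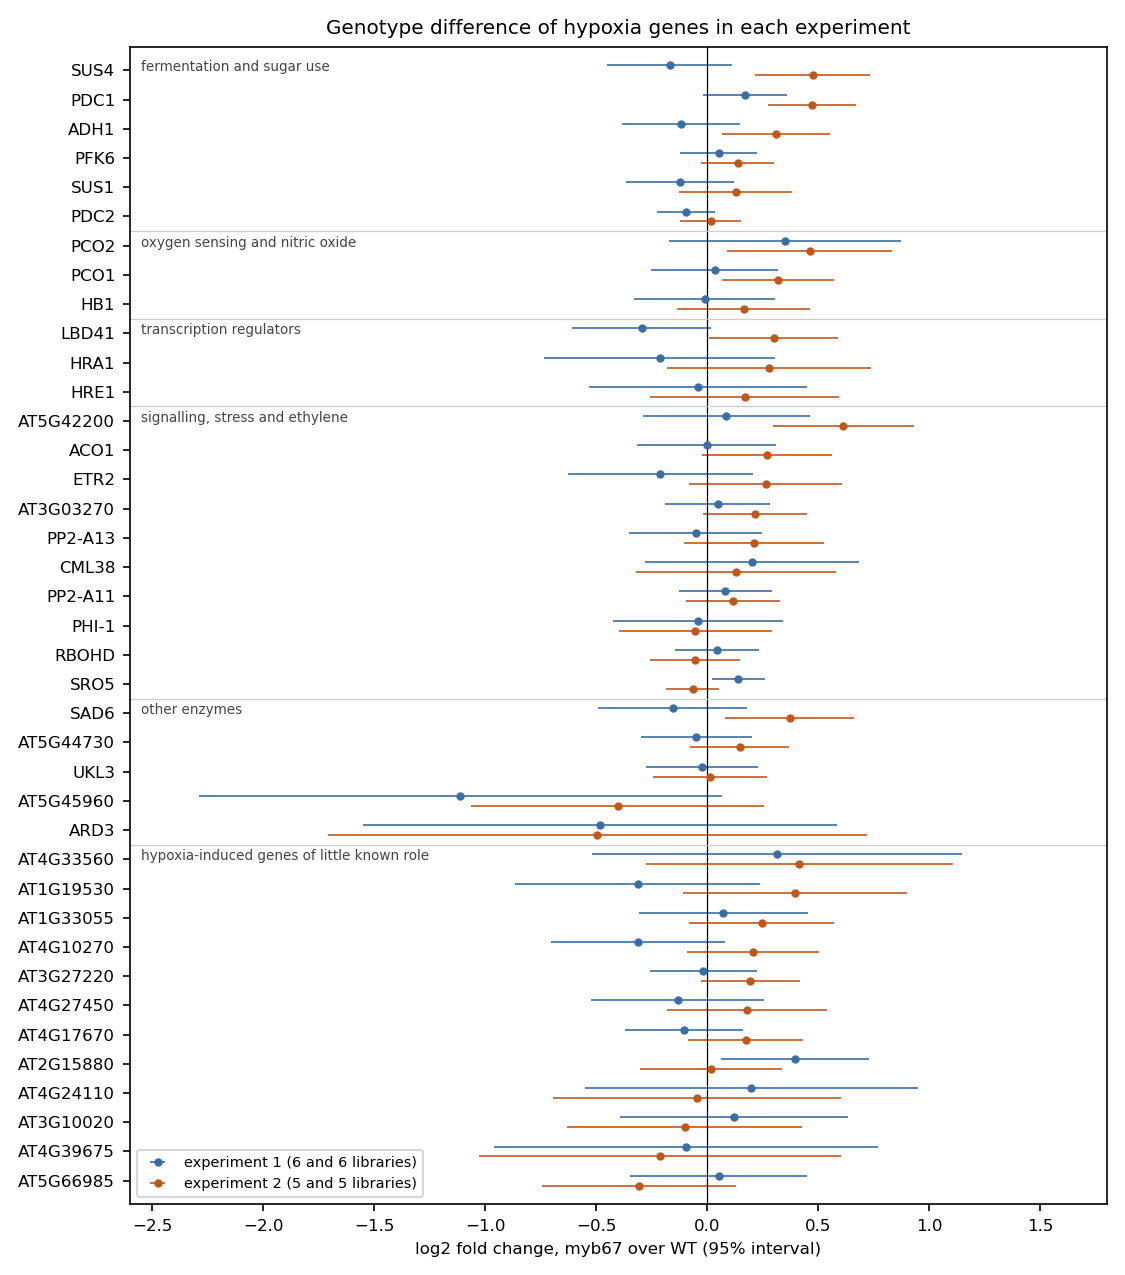
Each point is the edgeR log2 fold change of myb67 over WT for 1 member, without the pairs, and each line its 95% interval (x axis), with experiment 1 in blue and experiment 2 in orange and the 39 tested members grouped by role (y axis). The points of experiment 2 lie to the right of 0 for 30 members, while those of experiment 1 do so for 16. Members may move together, so the points are not independent.

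Libraries of experiment 2 with the same replicate number resembled each other across genotypes. Over all genes, the deviations from the group means of same-numbered WT and myb67 libraries correlated at 0.285 to 0.671 in experiment 2, over 0.1 in 5 of 5 pairs, and at -0.158 to 0.0430 in experiment 1. Both libraries of a number matched each other best in 4 of 5 pairs of experiment 2. For replicate 5 the best match in both directions was replicate 4 of the other genotype. The labels do not say what a number shares, so the pairing rests on these correlations. With the 5 pairs as a block, experiment 2 gave 6 called members, of which PDC1, SUS4, PCO2, LBD41 and AT5G42200 were higher and AT5G66985 was lower in myb67. The background rose as well, to 4.84% of all genes, 1.5% higher and 3.34% lower. In each of the 5 pairs 11 members were higher in myb67, against 8.66% of all genes, and 1 was lower, against 9.09%. The 11 were PDC1, SUS4, ADH1, PCO1, PCO2, LBD41, AT5G42200, ACO1, SAD6, AT5G44730 and AT4G33560.

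The promoters of the 5 members called higher with the pairs are shown because these genes moved in the same direction. Each is the 250 bases upstream of the gene's start in the RefSeq annotation of TAIR10.1, written 5′ to 3′ on the gene's strand. They lie at chr4:15954804-15955053 (minus strand), chr3:15184106-15184355 (minus), chr3:538127-538376 (minus), chr5:15974020-15974269 (plus) and chr5:16860036-16860285 (plus). Capitals mark, on either strand, ATCTA (a short motif), GCCGCC (the GCC box of ERF factors), CACGTG (the G-box) and AAACCA. The last is a motif of the anaerobic response element, known from maize. Binding of ERF-VII factors to these letters was not tested.
PDC1: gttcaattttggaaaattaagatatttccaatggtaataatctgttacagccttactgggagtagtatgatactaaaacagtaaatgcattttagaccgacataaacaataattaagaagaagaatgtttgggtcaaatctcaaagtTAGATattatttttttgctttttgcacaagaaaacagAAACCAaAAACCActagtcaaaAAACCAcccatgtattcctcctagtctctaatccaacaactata
SUS4: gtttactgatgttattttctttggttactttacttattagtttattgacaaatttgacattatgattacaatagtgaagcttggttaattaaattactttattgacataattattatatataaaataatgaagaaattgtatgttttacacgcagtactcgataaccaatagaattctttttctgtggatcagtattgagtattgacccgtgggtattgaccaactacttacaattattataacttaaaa
LBD41: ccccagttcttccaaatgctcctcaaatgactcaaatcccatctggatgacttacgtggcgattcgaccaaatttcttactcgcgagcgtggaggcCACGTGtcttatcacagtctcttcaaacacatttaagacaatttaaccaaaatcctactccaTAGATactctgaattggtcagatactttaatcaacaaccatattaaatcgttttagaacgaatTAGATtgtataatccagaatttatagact
PCO2: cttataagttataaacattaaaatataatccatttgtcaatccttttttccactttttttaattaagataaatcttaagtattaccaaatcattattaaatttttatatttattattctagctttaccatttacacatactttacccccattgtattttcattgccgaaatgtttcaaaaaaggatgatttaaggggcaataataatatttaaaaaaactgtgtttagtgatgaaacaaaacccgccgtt
AT5G42200: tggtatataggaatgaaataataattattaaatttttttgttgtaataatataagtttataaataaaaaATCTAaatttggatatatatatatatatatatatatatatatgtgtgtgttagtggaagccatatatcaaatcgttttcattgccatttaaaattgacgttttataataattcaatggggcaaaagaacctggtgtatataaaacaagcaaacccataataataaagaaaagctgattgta
PDC1 held 1 ATCTA and 3 AAACCA, LBD41 held 2 ATCTA and 1 CACGTG, AT5G42200 held 1 ATCTA, and these letters were not found in the windows of SUS4 and PCO2. Over the 42 members, ATCTA was found in 22 windows (52.4%), against 49.3% of all 26711 promoters of that length. AAACCA was found in 13 (31%, against 27.3%), CACGTG in 5 (11.9%, against 6.58%) and GCCGCC in 3 (7.14%, against 1.85%). ATCTA and AAACCA are thus about as frequent in the members as in all promoters. A match describes letters only, not a site.

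Among the fermentation and sugar-use genes, 6 in number and all tested, PDC1 was called higher in experiment 2 and SUS4 joined it with the pairs. In experiment 2 PDC1 stood at 18.3, 14.6, 18.3, 14.6 and 14.6 CPM in WT replicates 1 to 5. In myb67 it stood at 24.1, 20.7, 23.8, 20.9 and 22.1 CPM. Every myb67 library was above every WT library, and the log2 fold change was 0.47 (SE 0.10, edgeR adjusted p = 0.00795, and 0.48 with adjusted p = 0.00109 with the pairs). In experiment 1 PDC1 ran from 28.4 to 35.8 CPM in WT (median 31.7) and from 30.6 to 44.5 CPM in myb67 (median 35.2). These groups overlapped, the highest library being myb67 replicate 1, and the log2 fold change was 0.17 (SE 0.09, edgeR adjusted p = 0.648). The difference between the experiments was 0.30 (SE 0.13, edgeR adjusted p = 0.511), so PDC1 is not shown to respond differently in them. PDC1 was called in experiment 2 under each of the 22 single-library omissions, with adjusted p from 0.00332 to 0.0323.

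SUS4 (AT3G43190), a sucrose synthase that cleaves sucrose for glycolysis, stood at 52.5, 45.6, 75.3, 54.1 and 53.1 CPM in WT replicates 1 to 5 of experiment 2. In myb67 it stood at 77.1, 56.2, 92.9, 87.4 and 76.2 CPM. WT replicate 3 overlapped the myb67 libraries and the other 4 WT libraries did not. Replicate 3 was the highest in both genotypes, and each myb67 library exceeded the WT library of its number by 0.30 to 0.69 on the log2 scale. The log2 fold change was 0.47 (SE 0.12, edgeR adjusted p = 0.0653), and with the pairs it was 0.47 (SE 0.08, adjusted p = 6.23e-04). Without the pairs SUS4 was called when WT replicate 3 (adjusted p = 0.00636) or myb67 replicate 2 of experiment 2 (adjusted p = 0.00927) was left out. In experiment 1 it ran from 16.5 to 21.7 CPM in WT (median 19.8) and from 14.9 to 20.5 CPM in myb67 (median 16.6), with a difference of -0.17 on the log2 scale (SE 0.14, edgeR adjusted p = 0.809). The experiments differed by 0.64 on the log2 scale, which did not pass without the pairs (SE 0.18, edgeR adjusted p = 0.337) and passed with them (SE 0.12, adjusted p = 0.00497). SUS1 and SUS4 share 84.3% of their coding bases, with identical runs of up to 38 bases, so reads of one may be counted for the other.

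ADH1 (AT1G77120), the alcohol dehydrogenase that makes ethanol, stood at 44.6, 39.4, 45.6, 33.1 and 32.2 CPM in WT and at 54.9, 40.3, 52.3, 51.6 and 42.7 CPM in myb67 in experiment 2. The groups overlapped, but myb67 was the higher library in all 5 pairs, by 0.03 to 0.64 on the log2 scale. The log2 fold change of 0.31 (SE 0.12) was not called (edgeR adjusted p = 0.346, and 0.0664 with the pairs), and in experiment 1 it was -0.12. The other 3 genes of this role were PDC2, SUS1 and the phosphofructokinase PFK6, whose log2 fold changes in experiment 2 were 0.02, 0.13 and 0.14, none called. PDC2, which shares 75.6% of its coding bases with PDC1, had a 95% interval of -0.12 to 0.15 there. ADH1 overlaps another annotated gene on the opposite strand, so its counts are uncertain where strand was not used.

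**Figure D2:**
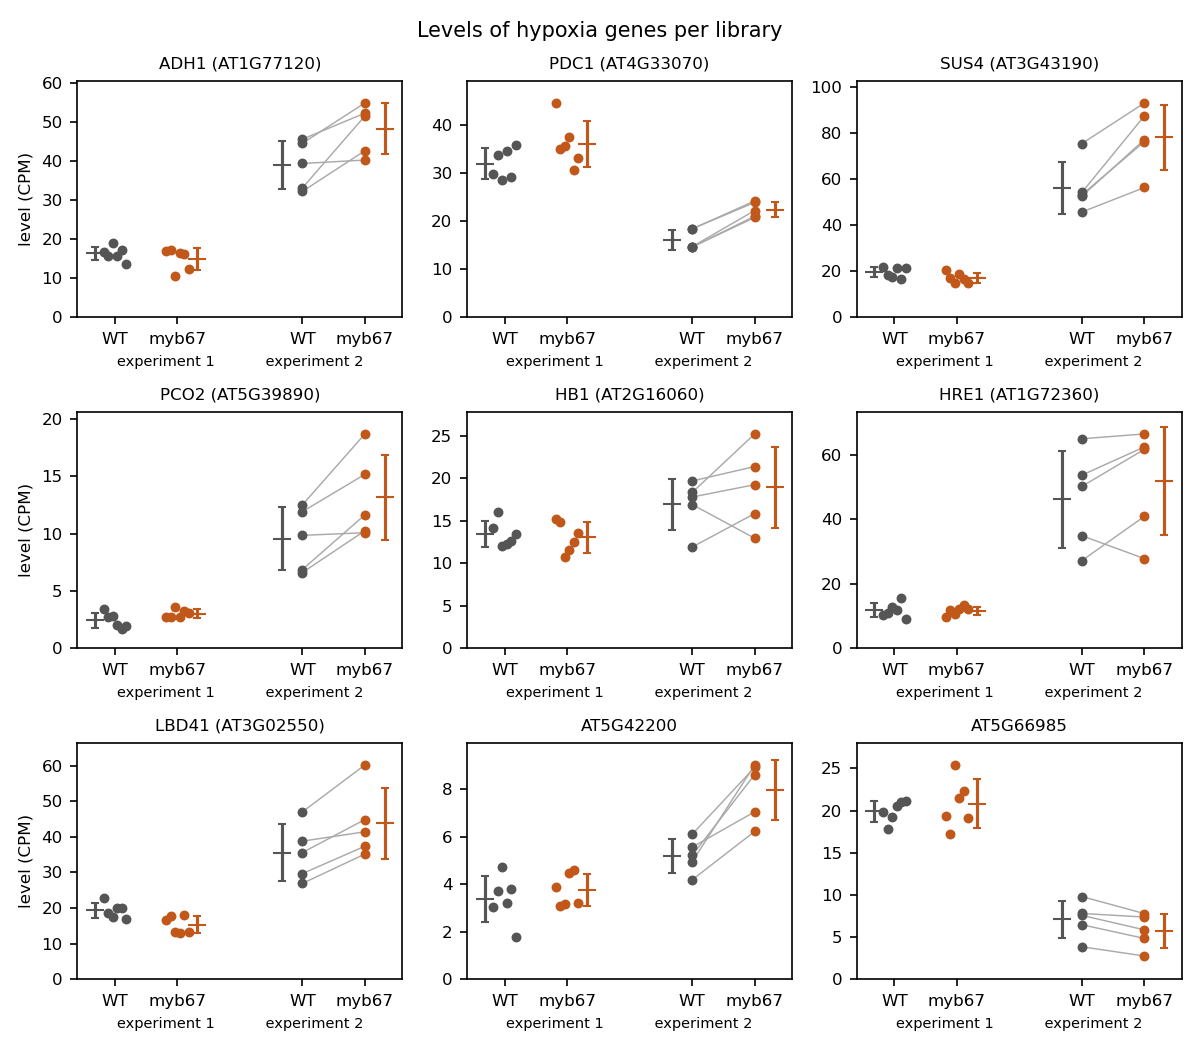
Each panel gives the CPM of 1 member (y axis, from 0) in every library of the 4 groups (x axis), with the mean and SD beside the points and lines that join same-numbered libraries of experiment 2. In experiment 2 the lines of PDC1, SUS4, PCO2, LBD41, ADH1 and AT5G42200 all rise from WT to myb67 and those of AT5G66985 all fall.

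The oxygen-sensing and nitric oxide genes were the cysteine oxidases PCO1 (AT5G15120) and PCO2 (AT5G39890), which oxidise the ERF-VII cysteine, and HB1 (AT2G16060), a haemoglobin that scavenges nitric oxide. None was called in experiment 2 without the pairs, though all 3 had values above 0 (median log2 fold change 0.32). PCO2 stood at 12.5, 9.85, 11.9, 6.87 and 6.60 CPM in WT replicates 1 to 5 of experiment 2 and at 18.7, 10.09, 15.2, 11.7 and 10.3 CPM in myb67. Replicates 1 and 3 were the highest in both genotypes and the groups overlapped. The log2 fold change was 0.46 (SE 0.18, edgeR adjusted p = 0.382) and, with the pairs, 0.47 (SE 0.11, adjusted p = 0.00850). Leaving out 1 pair at a time moved that adjusted p between 0.00323 and 0.0737, and 2 of 5 omissions kept the call.

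PCO2 is a low gene in experiment 1, where it ran from 1.66 to 3.43 CPM in WT and from 2.71 to 3.63 CPM in myb67, with a difference of 0.35 on the log2 scale (SE 0.25, edgeR adjusted p = 0.778). Over both experiments it was 0.42 (SE 0.14, edgeR adjusted p = 0.254), and with the pairs 0.43 (SE 0.09, adjusted p = 0.00700), a call that held under each of the 5 omissions of a pair. PCO1 stood at 16.4, 14.0, 13.2, 10.3 and 10.98 CPM in WT and at 20.1, 14.5, 15.1, 15.4 and 15.8 CPM in myb67 in experiment 2. It was higher in myb67 in all 5 pairs but did not pass, at 0.32 (SE 0.12, edgeR adjusted p = 0.357, and 0.0513 with the pairs). In experiment 1 PCO1 had a log2 fold change of 0.03. HB1 stood at 11.9, 16.9, 19.7, 18.3 and 17.8 CPM in WT and at 15.8, 12.9, 21.4, 25.2 and 19.2 CPM in myb67 in experiment 2. Its groups overlapped widely, and the log2 fold change of 0.16 had a 95% interval of -0.13 to 0.46.

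**Figure D3:**
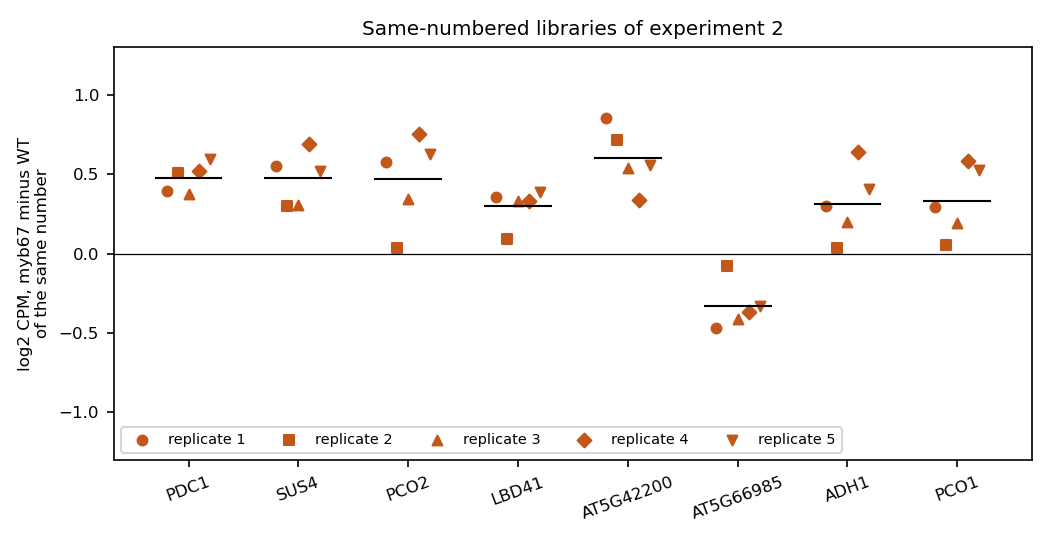
Points are the log2 CPM of a myb67 library minus that of the WT library of the same number in experiment 2 (y axis) for 8 members (x axis), with 1 symbol per number and a line at the mean. The points of 7 members lie above 0 for every number, and those of AT5G66985 lie below 0.

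The transcription regulators were LBD41 (AT3G02550), a LOB domain factor, HRA1 (AT3G10040), a factor known to restrain RAP2.12, and the ERF-VII factors HRE1 (AT1G72360) and HRE2 (AT2G47520). Without the pairs none was called in either experiment. LBD41 stood at 47.0, 38.8, 35.6, 29.6 and 26.9 CPM in WT replicates 1 to 5 of experiment 2 and at 60.2, 41.4, 44.8, 37.3 and 35.2 CPM in myb67. Replicate 1 was highest and replicate 5 lowest in both genotypes, so the groups overlapped while every pair was higher in myb67. The SD of its 5 pair differences was 0.12 on the log2 scale, against an SD of 0.32 among the WT libraries. Its log2 fold change was 0.30 (SE 0.14, edgeR adjusted p = 0.579) and, with the pairs, 0.30 (SE 0.08, adjusted p = 0.0280). That call held in 1 of 5 omissions of a pair, with adjusted p from 0.0248 to 0.128.

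In experiment 1 LBD41 ran from 17.02 to 22.8 CPM in WT (median 19.3) and from 12.9 to 17.99 CPM in myb67 (median 14.9). The groups overlapped, myb67 being on the low side, and the log2 fold change was -0.30 (SE 0.15, edgeR adjusted p = 0.618). The experiments differed by 0.59 on the log2 scale, which did not pass without the pairs (SE 0.21, edgeR adjusted p = 0.414) and passed with them (SE 0.12, adjusted p = 0.00858). LBD41 and SUS4 were the 2 members called for this difference with the pairs, both larger in experiment 2, against 2.64% of all genes in either direction and 0.738% in that one. Without the pairs edgeR called 0 members for it, against 0.0692% of all genes. DESeq2 and limma-voom also called 0, against 0.198% and 0.0277% of all genes. By edgeR 8 members had an unadjusted p under 0.05, and so had 1911 of all 21683 genes. The fit shares its estimate of spread per gene over both experiments, so the block also changed the errors of unpaired experiment 1. There the median SE of all genes fell from 0.108 to 0.0961, and genes called rose from 135 to 280. The calls of LBD41 and SUS4 for the difference rest on this shared spread.

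HRE1 stood at 27.2, 34.9, 65.0, 50.2 and 53.7 CPM in WT and at 40.9, 27.8, 66.5, 61.7 and 62.5 CPM in myb67 in experiment 2. Replicates 3, 4 and 5 were higher than replicates 1 and 2 in both genotypes, and the log2 fold change of 0.17 had a 95% interval of -0.26 to 0.59. In experiment 1 it was -0.04, with WT from 9.14 to 15.5 CPM and myb67 from 9.77 to 13.3 CPM. HRE1 overlaps another annotated gene, which adds doubt to its counts. HRE2 did not exceed 0.697 CPM in any library and could not be tested. HRA1 stood at 6.23, 3.96, 3.42, 3.74 and 2.53 CPM in WT and at 5.92, 5.69, 4.27, 3.54 and 4.83 CPM in myb67 in experiment 2, with overlapping groups. HRA1 differed by -0.21 on the log2 scale in experiment 1 and 0.28 in experiment 2, neither called.

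None of the constitutive ERF-VII factors was called. RAP2.12 stood at 240 ± 11.1 CPM in WT and 230 ± 11.5 CPM in myb67 in experiment 1 (SD, n = 6 each), and at 315 ± 18.9 CPM and 317 ± 19.5 CPM in experiment 2 (SD, n = 5 each). Its log2 fold change over both experiments was -0.03, with a 95% interval of -0.10 to 0.05. For RAP2.2 it was -0.04 (-0.17 to 0.09) and for RAP2.3 -0.05 (-0.22 to 0.12). Of the 12 genes listed for oxygen sensing and the N-degron pathway, the route by which oxidised ERF-VII factors are broken down, 0 were called over both experiments by edgeR, with 1 at an unadjusted p under 0.05, and 0 with the pairs.

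The signalling, stress and ethylene genes numbered 10, all tested, of which AT5G42200, a RING/U-box protein by its RefSeq product, was called higher in experiment 2. It stood at 4.95, 5.21, 6.10, 5.56 and 4.19 CPM in WT replicates 1 to 5 and at 9.03, 8.62, 8.93, 7.05 and 6.22 CPM in myb67. Every myb67 library was above every WT library, though the lowest myb67 and the highest WT library were close. The log2 fold change was 0.61 (SE 0.15, edgeR adjusted p = 0.0452), and with the pairs the adjusted p was 0.00743. The call without the pairs was near the threshold, since 18 of 22 single-library omissions ended it and the adjusted p ranged from 0.0149 to 0.174. With the pairs it held in 4 of 5 omissions and missed without replicate 1 (adjusted p = 0.0578). In experiment 1 AT5G42200 ran from 1.78 to 4.72 CPM in WT and from 3.09 to 4.58 CPM in myb67, with a log2 fold change of 0.09.

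ETR2 (AT3G23150), an ethylene receptor, stood at 19.9, 20.7, 33.9, 29.4 and 28.5 CPM in WT and at 27.9, 18.8, 40.4, 34.0 and 37.6 CPM in myb67 in experiment 2. As in HRE1, replicates 3, 4 and 5 were on the high side in both genotypes, and the groups overlapped. ETR2 differed by -0.21 on the log2 scale in experiment 1 and 0.26 in experiment 2, neither called. RBOHD (AT5G47910), the NADPH oxidase that makes superoxide at the cell surface, stood at 217, 190, 273, 233 and 243 CPM in WT and at 192, 189, 250, 230 and 250 CPM in myb67. Over both experiments its log2 fold change was 0.00, with a 95% interval of -0.14 to 0.13.

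The calmodulin-like protein gene CML38 (AT1G76650) ran from 4.57 to 10.5 CPM in WT and from 7.44 to 24.1 CPM in myb67 in experiment 1, where myb67 replicate 3 alone exceeded 11.5 CPM. That library also had the highest sum over 10 touch and wounding genes in experiment 1, 499 CPM where the 12 libraries ran from 275 CPM, and the part of this in CML38 was not tested. In experiment 2 CML38 stood at 12.5, 8.23, 14.2, 12.3 and 10.099 CPM in WT and at 10.9, 10.5, 16.5, 12.3 and 12.5 CPM in myb67, and its log2 fold change over both experiments was 0.16 (95% interval -0.16 to 0.49). AT3G03270, of the adenine nucleotide alpha hydrolase family in RefSeq, stood at 30.2, 28.5, 33.2, 27.3 and 27.7 CPM in WT and at 38.3, 32.3, 32.3, 35.1 and 32.3 CPM in myb67 in experiment 2. Its log2 fold change of 0.21 (SE 0.11) was not called, with an edgeR adjusted p of 0.682. ACO1, an ACC oxidase that makes ethylene, had a log2 fold change of 0.27 in experiment 2 and was higher in myb67 in all 5 pairs without passing (edgeR adjusted p = 0.683, and 0.142 with the pairs). The other members of this role, PP2-A13, PP2-A11, PHI-1 and SRO5, had log2 fold changes from -0.07 to 0.21 in experiment 2.

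Among the 5 other enzymes none was called in any comparison. SAD6 (AT1G43800), a stearoyl-ACP desaturase that puts a double bond in fatty acids, stood at 10.4, 10.97, 11.1, 7.56 and 7.76 CPM in WT and at 12.1, 12.6, 13.6, 13.7 and 9.73 CPM in myb67 in experiment 2. It was higher in myb67 in all 5 pairs, and the log2 fold change of 0.37 (SE 0.14) had an edgeR adjusted p of 0.352, or 0.0826 with the pairs, while in experiment 1 it was -0.16. ARD3 (AT2G26400), an acireductone dioxygenase of the methionine salvage cycle, was low, with means from 0.130 to 0.638 CPM over the 4 groups. Its log2 fold change of -0.49 over both experiments had an SE of 0.38, so a change of that size could not be told from 0. In WT of experiment 1 alone its libraries ran from 0.158 to 1.52 CPM. AT5G45960, a GDSL-like lipase by its RefSeq product, was low as well, with means of 0.414 CPM in WT of experiment 1 and 0.911 CPM in WT of experiment 2, and a wide error on the log2 fold change in experiment 1 (-1.11, SE 0.57).

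Of the 14 genes of little known role, 12 were tested and none was called without the pairs. AT5G66985 stood at 3.83, 7.79, 6.45, 7.56 and 9.79 CPM in WT replicates 1 to 5 of experiment 2 and at 2.74, 7.36, 4.82, 5.84 and 7.77 CPM in myb67. Replicate 1 was lowest and replicate 5 highest in both genotypes, and myb67 was the lower library in every pair. The log2 fold change was -0.31 (SE 0.21, edgeR adjusted p = 0.871) and, with the pairs, -0.33 (SE 0.09, adjusted p = 0.0465). The call held in 1 of 5 omissions of a pair, with adjusted p from 0.0302 to 0.165. In experiment 1 AT5G66985 ran from 17.9 to 21.1 CPM in WT and from 17.2 to 25.4 CPM in myb67, with a log2 fold change of 0.05.

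AT4G10270, a wound-responsive family protein by its RefSeq product, ran from 1.90 to 4.95 CPM in WT and from 2.08 to 2.49 CPM in myb67 in experiment 1. In experiment 2 it stood at 6.85, 6.87, 6.35, 5.34 and 4.84 CPM in WT and at 8.03, 6.10, 6.05, 8.35 and 6.30 CPM in myb67. The log2 fold changes of -0.31 and 0.20 were not called. AT3G27220, a kelch repeat protein by its RefSeq product, stood at 15.0, 11.9, 13.6, 12.03 and 10.02 CPM in WT and at 16.1, 11.5, 16.6, 15.6 and 11.8 CPM in myb67 in experiment 2, where the log2 fold change was 0.19. AT1G19530 stood at 129, 146, 226, 204 and 213 CPM in WT and at 177, 111, 309, 306 and 302 CPM in myb67, again with replicates 3, 4 and 5 the highest in both genotypes. For AT1G19530 the log2 fold change of 0.39 in experiment 2 had an SE of 0.24 and was not called. AT3G29970 was at 0 in all 12 libraries of experiment 1, where a count of 0 allows up to 0.169 to 0.810 CPM by library (3 counts), and ran from 0.0349 to 0.197 CPM in experiment 2. AT5G10040 did not exceed 0.195 CPM.

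The experiments differed more than the genotypes in the level of these genes. The 42 members summed to 788 to 966 CPM in experiment 1 and to 1460 to 2208 CPM in experiment 2. Of 39 tested members, 20 had every WT library of experiment 2 above every WT library of experiment 1 and 3 had them below, against 26.1% and 24.8% of all genes. In myb67, 24 were above and 2 below, against 29.1% and 26.7% of all genes. Between the WT means the ratio was 8.45 for AT1G19530, 4.31 for AT4G27450, 3.95 for PCO2, 3.94 for HRE1, 3.52 for SUS1, 2.95 for ETR2, 2.88 for SUS4 and 2.39 for ADH1. The WT mean was lower in experiment 2 for 8 of 39 members. The 3 wholly below were PDC1, 1.98 times more in experiment 1, AT5G66985, 2.81 times, and PP2-A11, 1.41 times. ARD3, a low gene whose libraries overlapped, was 3.36 times more in experiment 1.

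The summed level of the green tissue genes given above was also higher in experiment 2 in both genotypes. By mean, 9 of the 10 were higher there in WT and 10 in myb67, the exception being LHCB1.1 in WT (52.2 against 6.53 CPM). Of 7 dividing-cell and root-tip genes, the 5 division genes were higher in experiment 2 and the 2 root-tip genes lower, PLT1 at 12.03 CPM in WT of experiment 1 against 3.84 CPM in experiment 2 and PLT2 at 7.005 against 3.03 CPM. Over the 7 together the summed CPM was 167 to 196 in experiment 1 but 265 to 303 in experiment 2. Their part in the level of the members was not tested. Experiment 1 and experiment 2 also differ in depth, in the number of genes above 0, in the rRNA share and in how the counts were deposited. These cannot be told apart from the plants.

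**Figure D4:**
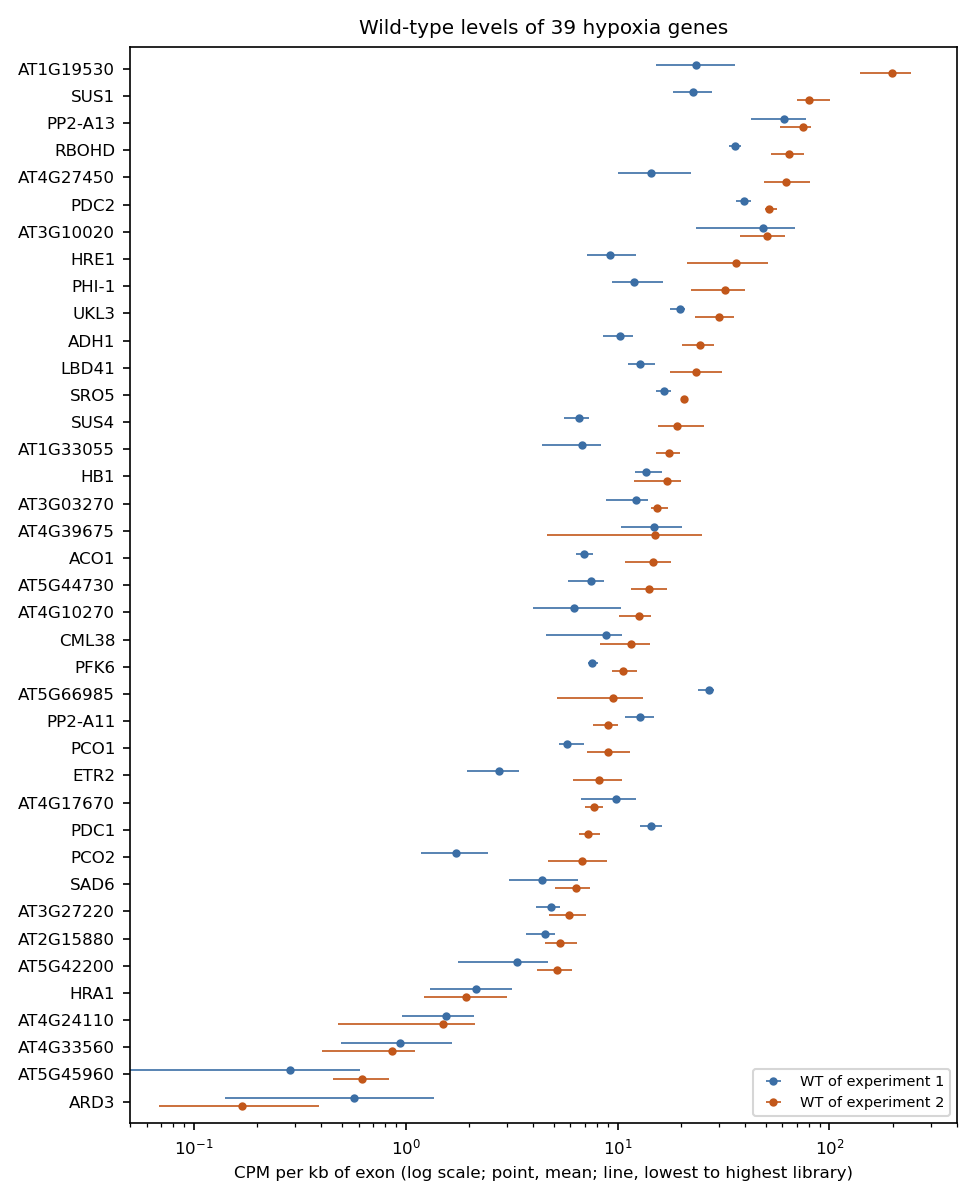
Points are the mean WT level per kb of exon (x axis, log scale) of the 39 tested members (y axis), with lines from the lowest to the highest library, experiment 1 in blue and experiment 2 in orange. The largest gap is that of AT1G19530, and 8 members, among them PDC1, AT5G66985, PP2-A11 and ARD3, have the higher mean in experiment 1. The line of AT5G45960 in experiment 1 is cut at the axis limit because its lowest library is at 0.

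Per kb of exon, so that genes can be compared with each other, the highest WT levels in experiment 1 were those of PP2-A13 (61.3 CPM per kb), AT3G10020 (48.5), PDC2 (39.3) and RBOHD (36.0). In experiment 2 they were those of AT1G19530 (198 CPM per kb), SUS1 (79.8), PP2-A13 (75.1) and RBOHD (64.2). Ranked by mean, 40 of 41 neighbours in experiment 1 and 38 of 41 in experiment 2 had overlapping ranges, so their order is not settled by the spread between libraries. PDC2 was above PDC1 in both experiments.

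Other hypoxia-induced genes outside the list, 11 of 12 tested, gave 0 calls over both experiments with edgeR, with 3 at an unadjusted p under 0.05. With the pairs in experiment 2, ACR7, an ACT domain protein, was the 1 called higher (log2 fold change 0.33, edgeR adjusted p = 0.0207). Among 16 tested genes of other fermentation and sugar use, 2 were called lower over both experiments. These were SUS3, a sucrose synthase (log2 fold change -0.30, SE 0.06, edgeR adjusted p = 0.0109), and ALDH2B4, an aldehyde dehydrogenase that oxidises acetaldehyde (-0.24, SE 0.04, edgeR adjusted p = 0.00128). Of 8 ethylene synthesis and response genes, 0 were called over both experiments by edgeR, with 1 at an unadjusted p under 0.05, and with the pairs in experiment 2 ACO4 was lower (-0.27, edgeR adjusted p = 0.0311).

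Other cell markers were read beside these values. Of 10 green tissue genes, 0 were called over both experiments by edgeR (1 at an unadjusted p under 0.05). LHCB1.1 was lower in experiment 1 (-5.20, edgeR adjusted p = 0.0361), and 5 were lower there with the pairs. Of all 21683 genes, 67 were called lower in experiment 1, and 131 with the pairs. WT replicates 3 and 6 of experiment 1 held the high green tissue values, at 1302 and 1787 CPM summed. Of 5 mature root genes, GPAT5 (0.35, edgeR adjusted p = 0.00596) and CYP86A1 (0.36, adjusted p = 0.00727) were higher over both experiments. FAR4 was lower (-0.33, edgeR adjusted p = 0.0194) and 2 were not called. Of all 21683 genes, 177 were called higher over both experiments and 149 lower. Of 10 touch and wounding genes 0 were called over both experiments by edgeR without the pairs (2 at an unadjusted p under 0.05). With the pairs TCH3 was lower over both experiments (-0.41, edgeR adjusted p = 0.0289) and in experiment 2 (-0.57, adjusted p = 0.00809). Of all 21683 genes, 241 were called lower over both experiments with the pairs, 724 in experiment 2 and 413 for the difference. WRKY33 was lower in experiment 2 with the pairs (-0.51, edgeR adjusted p = 0.00970) and for the difference between experiments (-0.68, adjusted p = 0.0206). Their part in the values of PDC1, SUS4 and the other members was not tested.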

How the data were processed

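The authors deposited 1 table of gene values for 22 libraries: expected counts in experiment 1 (steps of 0.5, 28.2% to 34.6% of values per library not whole) and raw counts in experiment 2. Tools in the submitters' processing notes are STAR 2.7.10a, Trimmomatic 0.39, DESeq2 1.40.1, HOMER and FastQC, on the build TAIR10. The use of strand and of multi-mapping reads in counting is not stated there. The authors' deposited comparison holds a log2 fold change, its standard error (a score), an adjusted p-value and a mean signal per gene.

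Values of experiment 1 were rounded. Genes were filtered with filterByExpr of edgeR 4.0.16 on 4 groups, scaled by TMM (0.709 to 1.05) and tested with the quasi-likelihood F test, with a genotype term beside the experiment for both experiments together and with contrasts of 4 group means otherwise. A call is an adjusted p under 0.05 (Benjamini-Hochberg) across the 21683 genes. SE is the log2 fold change over the root of F. Levels are TMM-scaled CPM, and log2 CPM used a prior count of 2. Alternatives with limma 3.58.1, DESeq2 1.42.0, other filters and scalings, omitted libraries and replicate blocks were run, and the model steps were tested on simulated data. R 4.3.3, Python 3.11.15, matplotlib 3.10.9 and Biopython 1.88 were used.

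Same-numbered libraries were taken as pairs in experiment 2 from the correlations of their deviations, since all 5 were over 0.1, and not in experiment 1, where 0 of 6 were. Replicate 5 of experiment 2 was kept as a pair though its libraries matched replicate 4 of the other genotype best. No 2 replicates agreed within sampling noise, the chi-square per gene being at least 2.08. Where nothing in the labels ties replicates to separate cultures beyond their name, p-values measure the spread between these libraries. The members, lists and the rule for named genes were chosen with earlier results of these data known. That rule names every member called in any comparison, with or without the pairs, set representatives of each role, other listed genes where called, the ERF-VII factors and MYB67. ACO1, AT1G19530, AT5G45960 and other members named outside it were chosen after their values were seen. Of 39 tested members 9 overlap another gene's span (ADH1, HRE1, PFK6, SRO5, PP2-A13, AT1G33055, AT4G10270, AT4G27450, AT5G44730), so their counts are uncertain. Sequences and positions come from the RefSeq annotation of TAIR10.1. Floors of 3 counts cover counting error only.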

Additional observations from a re-analysis of the deposited data

Results flagged for a closer look

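Each group of a member's libraries was checked for a library far from the rest by Dixon's test at the 95% level, which chance flags in about 1 in 20 groups. Of 160 groups 5 were marked, where 8 would be expected by chance. SUS4 in WT replicate 3 of experiment 2 stood at 75.3 CPM, where the other 4 libraries ran from 45.6 to 54.1 CPM. PDC2 in the same library stood at 129 CPM, against 113 to 117 CPM. PCO1 in myb67 replicate 1 of experiment 2 stood at 20.1 CPM, against 14.5 to 15.8 CPM. In myb67 replicate 3 of experiment 1, CML38 stood at 24.1 CPM, against 7.44 to 11.5 CPM, and SRO5 at 39.03 CPM, against 30.6 to 32.4 CPM.

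With the pairs of experiment 2 in the fit, the genotype difference was larger in experiment 2 than in experiment 1 for SUS4, by 0.64 on the log2 scale (edgeR adjusted p = 0.00497), and for LBD41, by 0.59 (edgeR adjusted p = 0.00858). Both genes were below 0 in experiment 1 and above 0 in experiment 2. The fit with the pairs shares its estimate of spread per gene over both experiments, though experiment 1 was not paired. In the edgeR fit of all libraries without the pairs, neither gene was called in either experiment.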

How the results depend on the processing

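No called direction reversed under the alternatives run, and 0 members were called in experiment 1 under each of them. In those fits 0.365% to 2.43% of all genes were called in experiment 1. The members' median log2 fold change in experiment 1 ran from -0.05 to 0.01 over single-library omissions and was above 0 in experiment 2 under all. Counts of called members moved most with the replicate block. With the block in experiment 2, or in both experiments, 2 members were called over both experiments, 6 in experiment 2 and 2 for the difference between experiments. With the block and limma-voom these counts were 4, 11 and 2, with the block and DESeq2 they were 2, 9 and 2, and with the block and the 3 libraries of fewest counts left out they were 2, 8 and 2; these 3 were added after the data were seen. The share of all genes called rose too. It was 2.21%, 4.84% and 2.64% with the block in experiment 2 and 1.78%, 4.52% and 2.38% with it in both. It was 3.19%, 6.59% and 2.66% with limma-voom, 3.03%, 6.29% and 4.48% with DESeq2, and 2.3%, 5.09% and 2.58% without the 3 libraries. Experiment 2 fitted alone gave 1 member (0.618% of all genes called), or 10 with the block (7.39%).

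Without the block, limma-voom called 2 members over both experiments (1.78% of all genes) and 3 in experiment 2 (1.73%). DESeq2 without the block called 3 in experiment 2 (1.85%). Leaving out the 3 libraries of fewest counts gave 0 over both experiments (1.31% of all genes, PDC1 0.32, edgeR adjusted p = 0.0629) and 1 in experiment 2 (1.15%). Dropping the experiment term gave 0 (0.383%, PDC1 0.27, edgeR adjusted p = 1.00). With no filter 1 member was called in experiment 2 (0.770%). Each library left out in turn gave 1 to 2 over both experiments, 1 to 3 in experiment 2 and 0 for the difference. The shares of all genes called were 1.32% to 1.51%, 0.88% to 2.34% and 0.0461% to 0.106%. Each pair left out with the block gave 2, 2 to 8 and 2 members, against 1.67% to 1.8%, 3.19% to 4.18% and 1.65% to 2.41% of all genes. The cause of these moves was not tested. Counting error limits the low members (HRE2, ARD3, AT5G45960), most in experiment 1.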
